A study of Mus musculus with 20 samples.

Results

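Primed distal elements are stretches of open chromatin away from promoters whose nucleosomes carry H3K4me1 but not H3K27ac. In the WT cells of this study 5702 regions met the rule given next. They were 31.3% of the 18211 distal regions and 17.8% of all 32120 regions of the authors' consensus ATAC-seq table. A region was taken as a member when its annotation did not begin with Promoter, when an H3K4me1 peak overlapped it by at least 1 bp in both WT libraries, and when neither H3K27ac peaks nor broad H3K27me3 peaks overlapped it in both WT libraries. The members were thus chosen by the H3K4me1, H3K27ac and H3K27me3 peaks of those 6 WT libraries, and their WT marks are described with no test. An H3K27ac peak in 1 WT library did not bar a region, and 2533 members had one. The remaining distal regions were 4924 with H3K27ac but not H3K27me3 in both WT libraries (acetylated), 1085 with H3K27me3 in both (Polycomb-marked) and 6500 with none of the 3 marks in both (unmarked).

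H3K4me1 is laid down by the methyltransferases Kmt2c and Kmt2d and is found at enhancers whether or not they are in use. H3K27ac, placed by the acetyltransferases Ep300 and Crebbp, accompanies enhancers that are active, and H3K27me3 is the mark of Polycomb repressive complexes. An open element with H3K4me1 alone is commonly called primed, since such elements can gain H3K27ac when a cell changes state. Tcf4 is a basic helix-loop-helix transcription factor of the E-protein family, which binds E-boxes, the letters CANNTG, as a dimer with itself or with other helix-loop-helix factors.

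The material was neocortex of P7 or P8 pups, from which GFP-positive descendants of Nkx2.1-expressing progenitors were sorted. WT pups carried Nkx2.1-Cre with the Ai3 reporter, and Tcf4 cKO pups carried in addition floxed Tcf4 alleles (Tcf4 f/f; Nkx2.1-Cre), so that deletion and reporter both began in Nkx2.1-expressing progenitors of the ventral telencephalon and passed to all their progeny. Each genotype had 2 libraries of ATAC-seq and 2 of Cut&Tag for each histone mark, and Tcf4 was mapped in 2 anti-Flag Cut&Tag libraries of Tcf4-tag mice, in which a Flag/HA tag on endogenous Tcf4 is switched on by Nkx2.1-Cre. The labels do not say that libraries came from separate animals, so p-values measure the spread between libraries, which may be technical. No transcript level was used here, and the loss of Tcf4 itself was not checked.

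The peak lists hold no read counts, and the depth of a library is known here only by its number of peaks. These ran from 54162 to 72308 for ATAC, from 51510 to 72790 for H3K4me1, from 22026 to 28413 for H3K27ac and from 15085 to 19182 for H3K27me3. WT replicate 2 had the most ATAC peaks, and both Tcf4 cKO libraries had more H3K4me1 peaks than either WT library. Of the marker lists, a promoter region in the consensus table was found for 14 of 22 oligodendrocyte lineage genes, 21 of 22 astrocyte lineage genes, 16 of 20 interneuron and ventral genes and 6 of 12 projection neuron genes, against 1 of 9 microglial and 3 of 8 endothelial genes. In these sorted mixtures a change in the share of a cell type and a change within cells cannot be told apart.

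These 6 members are shown by sequence because they stand at the ends of the changes described below: the first pair had the largest falls of accessibility in Tcf4 cKO, the next pair the largest rises, and the last pair the strongest H3K27ac peaks among members that had none in WT. Each line gives 201 bases around the region centre on the plus strand of GRCm38, and capitals mark CANNTG and TTGGCA, the half-site of nuclear factor I, on either strand.
Fall, nearest gene A630001G21Rik, chr1:85720328-85720528: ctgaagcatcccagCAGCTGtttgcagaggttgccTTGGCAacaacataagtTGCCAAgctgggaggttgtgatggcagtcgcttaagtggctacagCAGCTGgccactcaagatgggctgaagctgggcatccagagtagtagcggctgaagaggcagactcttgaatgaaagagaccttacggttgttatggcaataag
Fall, nearest gene Pkdcc, chr17:82901365-82901565: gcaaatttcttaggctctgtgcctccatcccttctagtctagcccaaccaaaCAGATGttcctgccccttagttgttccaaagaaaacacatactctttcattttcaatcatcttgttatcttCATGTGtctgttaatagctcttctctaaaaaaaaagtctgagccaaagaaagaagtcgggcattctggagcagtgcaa
Rise, nearest gene without symbol, chr7:95926313-95926513: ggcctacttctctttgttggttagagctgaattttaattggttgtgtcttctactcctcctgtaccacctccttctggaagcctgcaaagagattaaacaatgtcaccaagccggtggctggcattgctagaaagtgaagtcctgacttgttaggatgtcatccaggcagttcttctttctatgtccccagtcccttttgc
Rise, nearest gene Svep1, chr4:58197200-58197400: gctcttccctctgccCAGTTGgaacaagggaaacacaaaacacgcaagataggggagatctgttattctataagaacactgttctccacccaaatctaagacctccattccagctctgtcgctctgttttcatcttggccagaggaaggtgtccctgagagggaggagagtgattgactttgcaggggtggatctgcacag
H3K27ac in Tcf4 cKO, nearest gene Syne1, chr10:5528562-5528762: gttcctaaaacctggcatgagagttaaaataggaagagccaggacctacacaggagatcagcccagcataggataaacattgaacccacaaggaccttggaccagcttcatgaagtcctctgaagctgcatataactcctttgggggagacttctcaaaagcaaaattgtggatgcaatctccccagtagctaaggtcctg
H3K27ac in Tcf4 cKO, nearest gene Rab3gap1, chr1:127855026-127855226: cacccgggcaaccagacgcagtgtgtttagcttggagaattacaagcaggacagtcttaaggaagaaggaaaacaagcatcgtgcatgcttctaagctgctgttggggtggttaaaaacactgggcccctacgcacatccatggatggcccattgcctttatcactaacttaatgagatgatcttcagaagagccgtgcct
The element near A630001G21Rik held 2 CAGCTG boxes and 2 TTGGCA words, and the one near Pkdcc 2 E-boxes of other kinds. The first rise and both H3K27ac elements held neither word in this window, and the Svep1 element held 1 E-box.

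The members were mostly intergenic or intronic. The annotation placed 2765 (48.5%) in distal intergenic sequence, 2271 (39.8%) in introns, 341 (5.98%) in exons, 204 (3.58%) in 3' UTRs, 104 (1.82%) downstream of a gene and 17 (0.298%) in 5' UTRs. Their median distance from the annotated start site was 21400 bp, with quartiles of 8950 and 51000 bp, and their median width was 813 bp against 997 bp for acetylated regions. The nearest acetylated distal region lay at a median of 120000 bp, and within 10 kb for 236 members (4.14%), close to the 116000 bp and 4.72% of all consensus regions. The nearest promoter in the consensus table carried H3K27ac without H3K27me3 at 59.9% of members and H3K27me3 at 23.4%, against 64.8% and 16.5% for acetylated regions.

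Just inside and just outside the rule the marks were weak. The weaker of a member's 2 WT H3K4me1 peaks had a median -log10 q, the peak caller's adjusted significance, of 3.71, and the lone peak of the 3227 distal regions with H3K4me1 in a single WT library, which missed the rule, had a median of 3.58. H3K27ac was absent from both WT libraries at 3169 members and present in 1 at 2533, of which 1690 had it in WT replicate 1 and 843 in WT replicate 2. The lone H3K27ac peak of those members had a median -log10 q of 3.88, and the weaker of the pair at acetylated regions 4.1. H3K27me3 lay over 401 members in 1 WT library.

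The size of a peak is given here as its fold enrichment over local background at the summit, from the authors' peak calls. The member near Gm25509 (chr18:73182703-73183495) had H3K4me1 enrichments of 8.32 and 8.34 in WT and of 8.19 and 7.55 in Tcf4 cKO. In the intron annotated to Hsf5, a heat shock factor gene, the region chr11:87638730-87639684 had 7.67 and 8.44 in WT, 7.43 and 6.63 in Tcf4 cKO, and H3K27ac at 6.9 and 5.5 in Tcf4 cKO beside 5.13 in WT replicate 1. The others of the 5 strongest lay near Gm12518, Gm10313 and Gm25990. All 5 kept H3K4me1 peaks in both Tcf4 cKO libraries, as 82.9% of all members did. Over all members the median WT enrichment was 4.22 and 4.35, close to the 4.11 and 4.22 of acetylated regions with an H3K4me1 peak. The rule required that peak of members, while 79.2% and 84.4% of acetylated regions had it in WT replicates 1 and 2.

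Genes are named by the nearest start site, and no link between a member and a gene was measured. Members were nearest to 4413 genes, of which 3514 had a single member and 56 had 4 or more. The uncharacterised genes 4930445N18Rik and Gm9869 led with 7 and 6 members. Behind them stood genes with 5 members each, among them Ank3, which encodes the ankyrin of the axon initial segment, the orphan nuclear receptor gene Esrrg, Gm6055, Gm9915, Klhl25 and 1700016C15Rik. Of the 11 distal regions nearest to Ank3, 5 were members and 4 of those lay in introns. At Gm9915, 4 of its 5 members had H3K27ac in both Tcf4 cKO libraries, and 1 was called more open by limma.

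How open the members were, and whether this changed without Tcf4, was asked with ATAC-seq, which the rule did not use in choosing among consensus regions. An ATAC peak was present at 96.4% and 99.2% of members in WT replicates 1 and 2 and at 96.4% and 96.6% in Tcf4 cKO. The mean was 97.8% ± 1.93 (SD, n = 2) in WT and 96.5% ± 0.149 in Tcf4 cKO, and the genotypes overlapped (exact two-sided permutation test, p = 1.0, smallest possible 0.33). The median enrichment of those peaks was 6.89 and 8.14 in WT and 7.08 and 7.04 in Tcf4 cKO, below the 8.38, 9.24, 8.0 and 8.03 of acetylated regions in the same libraries.

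**Figure D1:**
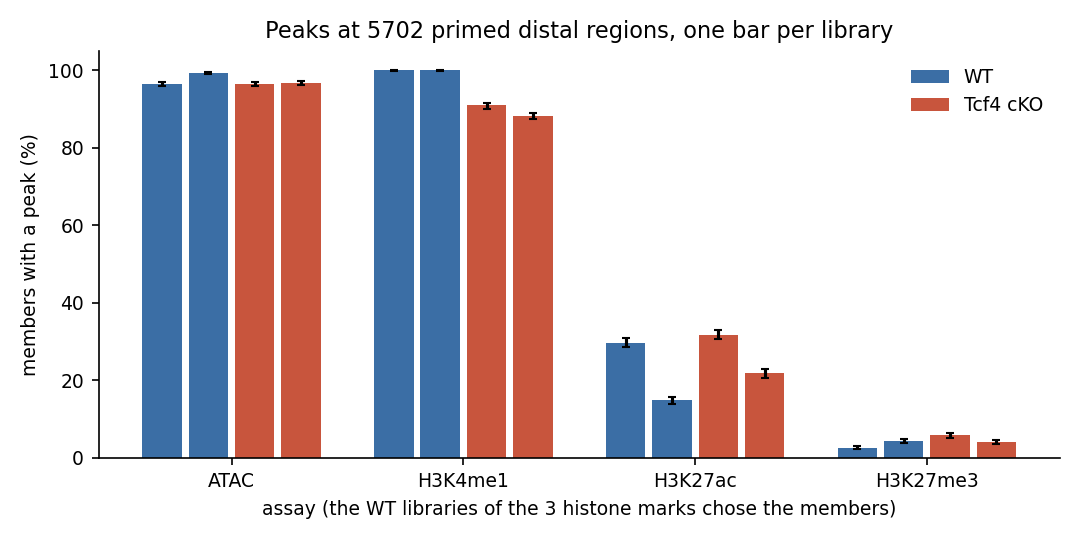
Percent of the 5702 members with a peak in each library (y axis), by assay (x axis), with WT in blue and Tcf4 cKO in red and replicates 1 and 2 from left to right. Error bars are Wilson 95% intervals over regions. ATAC peaks lay at 96.4% to 99.2% of members in every library, and H3K27ac peaks at 14.8% to 31.8%.

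Accessibility of single members was tested with limma on the log2 peak enrichment of the 4 ATAC libraries, quantile normalized, over the 30379 consensus regions with a peak in each of them. Among the 5178 members tested, 123 (2.38%, Wilson 95% interval 1.99 to 2.83) fell at an adjusted p under 0.05, where 1.15% of all tested regions did. Another 94 (1.82%, 1.49 to 2.22) rose, where 0.948% of all tested regions did. Of the 16610 distal regions tested, members included, 1.97% fell and 1.57% rose, so the members lay closer to distal regions than to all regions. Of 4829 acetylated regions 78 (1.62%) fell and 13 (0.269%) rose, whereas unmarked regions fell at 2.04% and rose at 2.61%. The members that fell had a median log2 change of -0.76 (range -1.23 to -0.45), and those that rose 0.78 (0.47 to 1.29), each with a median SE of 0.18. Leaving out either Tcf4 cKO library dropped some of these members from the calls and added others. These calls rest on both WT libraries: without WT replicate 1 or without WT replicate 2 limma called 0 members in either direction. At an unadjusted p under 0.05 those fits had 628 members lower and 365 higher without WT replicate 1, and 359 lower and 652 higher without WT replicate 2, beside 676 and 574 with all libraries.

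Of the 10 called members with the smallest adjusted p, 2 fell and 8 rose. The strongest fall lay in an intron annotated to Fer, a tyrosine kinase gene (chr17:64045122-64045819), where ATAC enrichment was 8.51 and 9.56 in WT and 3.78 and 3.5 in Tcf4 cKO. The limma log2 change was -1.23 ± 0.18 (SE, adjusted p = 0.00366), and a reproducible Tcf4 region covered 67.3% of the element. At Gm22492 (chr9:113386890-113387578), 83.7% covered by Tcf4, enrichment was 9.18 and 11.5 in WT and 4.05 and 4.67 in Tcf4 cKO. In both, the genotypes did not overlap, which the choice of members by adjusted p on these same values favours.

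The 8 that rose held no reproducible Tcf4, where 15.4% of all members held it. In an intron annotated to Tnik, a kinase gene of the Wnt pathway (chr3:28558105-28558994), enrichment was 3.06 and 4.03 in WT and 7.14 and 8.62 in Tcf4 cKO, and H3K27ac peaks appeared in both Tcf4 cKO libraries at 3.63 and 3.51. At Thsd4 (chr9:60479811-60480552), which encodes a matrix protein of the thrombospondin repeat family, it was 5.35 and 3.87 against 10.33 and 10.95 (log2 change 1.29 ± 0.19, limma adjusted p = 0.00366). The others lay near Gm23536, Man1c1, a Golgi mannosidase gene, Itsn1, an endocytic scaffold gene, Kcnh7, a potassium channel gene, Gm6044 and Gm23972, with log2 changes of 0.89 to 1.25. All 8 were higher in both Tcf4 cKO libraries than in both WT libraries, which their choice by adjusted p on these values favours.

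Called members were scattered, the 123 that fell over 119 nearest genes and the 94 that rose over 92. A gene with more than 1 member that rose, picked out after its values were seen, was Gap43, a growth cone protein gene with 3 members. Enrichment at chr16:42269083-42269759 was 8.33 and 6.92 in WT and 11.74 and 10.12 in Tcf4 cKO (log2 change 0.62 ± 0.16, limma adjusted p = 0.0415). At chr16:42575500-42575976 it was 4.37 and 5.81 in WT and 8.72 and 6.87 in Tcf4 cKO (0.72 ± 0.19, limma adjusted p = 0.0494). The member between them, with a log2 change of 0.24 ± 0.19, was not called.

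The 524 members without a peak in every ATAC library were left out of this fit, and the largest changes of mean accessibility described next were among them. An ATAC peak was found in the WT pair alone at 88 members (1.54%), where 1.02% of all consensus regions had this pattern, and in the Tcf4 cKO pair alone at 36 (0.631%), where 0.56% of all did. These shares were 1.67% and 0.923% for all distal regions, 2.92% and 1.95% for unmarked regions, and 0.447% and 0.0203% for acetylated regions. With 1 WT library the second count was 73 without WT replicate 1 and 253 without WT replicate 2, and with 1 Tcf4 cKO library the first was 192 without Tcf4 cKO replicate 1 and 204 without replicate 2.

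A second measure, the log2 of the authors' mean normalized reads for each genotype, covers every member but has no replicate values, so that its differences carry no error. The median member stood at 6.05 in WT and 6.07 in Tcf4 cKO. The difference of the means, Tcf4 cKO minus WT, was under -1 at 404 members (7.09%), where 4.18% of all consensus regions were, and over 1 at 375 (6.58%), where 2.87% were. Centring on the median of all consensus regions, -0.0954, gave 5.68% of members under -1 and 7.87% over 1, so which direction was the more frequent depended on it. Without centring these shares were 6.83% and 4.68% for all distal regions, 6.32% and 0.975% for acetylated regions, and 7.66% and 6.37% for unmarked regions. Over the 5178 members that have both measures, the difference of the means and the limma change had a Pearson r of 0.735, with shared libraries and depth, and 215 of the 217 called members had the same sign in both.

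The 6 largest falls of this mean, among members with an ATAC peak in both WT libraries, ran from -3.58 to -2.66. The largest was the element near A630001G21Rik whose sequence is shown above (chr1:85720103-85720754), at 6.07 in WT and 2.49 in Tcf4 cKO. Its ATAC enrichment was 7.72 and 9.22 in WT with no peak in Tcf4 cKO, its H3K4me1 peaks of 4.87 and 4.49 in WT had none to match in Tcf4 cKO, and a Tcf4 region covered 83.9% of it. The element near Pkdcc, a secreted kinase gene (chr17:82901119-82901812), went from 5.29 to 2.34 and also had neither an ATAC nor an H3K4me1 peak in Tcf4 cKO, and Tcf4 covered 81.3% of it. Near Lef1, the Wnt-responsive transcription factor gene, chr3:131016079-131016741 had ATAC at 7.52 and 6.63 in WT and no peak in Tcf4 cKO. The other 3 lay near Olfr1331, Gm24771 and Gm24754. Of the 6, 3 held reproducible Tcf4, 3 had H3K4me1 in neither Tcf4 cKO library and none had H3K27ac there. Of all members 15.4% held reproducible Tcf4, 3.77% had H3K4me1 in neither Tcf4 cKO library and 60.6% had H3K27ac in neither.

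The 6 largest rises ran from 2.8 to 3.86, and none of them held reproducible Tcf4, where 15.4% of all members did. The largest (chr7:95925805-95927021) stood at 3.37 in WT and 7.23 in Tcf4 cKO, with no ATAC peak in WT and enrichments of 7.22 and 9.43 in Tcf4 cKO. In the intron annotated to Svep1, a matrix protein gene (chr4:58196729-58197872), the mean was 3.09 in WT and 6.59 in Tcf4 cKO, and H3K27ac peaks of 3.42 and 4.14 were present in Tcf4 cKO alone. Rgs8, a regulator of G-protein signalling, Iffo2, Gm18159 and Gm10556 were nearest to the others. All 6 kept H3K4me1 in both Tcf4 cKO libraries, and 2 had H3K27ac in both. Of all members 82.9% had H3K4me1 in both and 14.1% had H3K27ac in both.

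What became of the marks in Tcf4 cKO was read next, with the caution that the rule fixed their direction, since members had to have H3K4me1 and could not have H3K27ac in both WT libraries. In Tcf4 cKO, 3909 members (68.6%) were still primed by the same rule, 781 (13.7%) were acetylated, 119 (2.09%) Polycomb-marked and 893 (15.7%) unmarked. The same rule applied to the Tcf4 cKO libraries gave 7538 regions, of which 51.9% were primed in WT, 19.2% acetylated, 2.76% Polycomb-marked and 26.2% unmarked. Acetylation in the other genotype was thus seen at a larger share of regions when the choice was made in Tcf4 cKO than when it was made in WT. H3K27ac peaks lay at 62.7% and 56.2% of all consensus regions in the WT libraries and at 57.5% and 50.4% in Tcf4 cKO. The part of this difference between libraries in those shares was not tested.

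**Figure D2:**
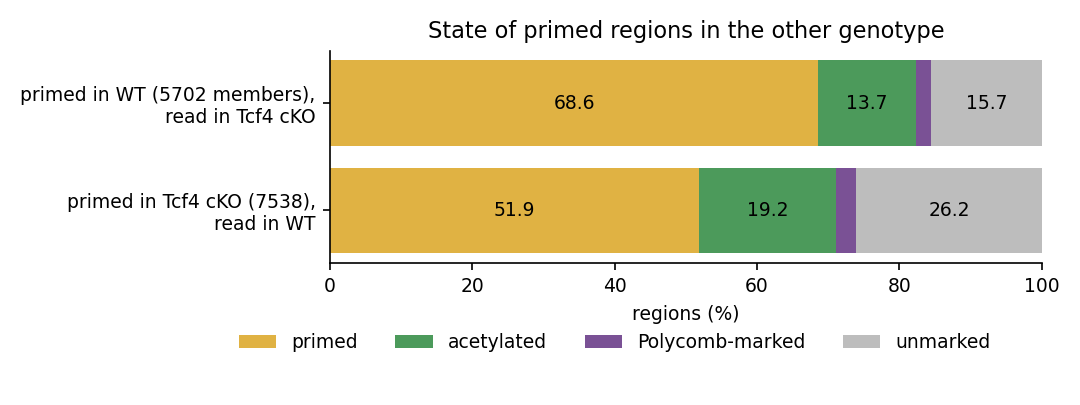
State in the other genotype of regions that were primed in WT (upper bar, the 5702 members) or in Tcf4 cKO (lower bar, 7538 regions), as percent of regions on the x axis. The yellow share stayed primed (68.6% and 51.9%) and the green share was acetylated (13.7% and 19.2%).

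H3K27ac in the Tcf4 cKO pair alone was seen at 210 members (3.68%), a count that the rule favours. Of all consensus regions 1.35% had it, and of all distal regions 1.92%. Choosing in Tcf4 cKO instead gave 549 of 7538 (7.28%) with H3K27ac in WT alone, a count that this other choice favours in turn. Of members without any WT H3K27ac peak 6.63% had H3K27ac in both Tcf4 cKO libraries, and of those with a peak in 1 WT library 23.5% did. The share of all members with H3K27ac in both, 14.1%, was 8.22% without WT replicate 2, and 21.8% and 31.8% where a single Tcf4 cKO library was read. The strongest of the 210 lay in an intron annotated to Syne1, the nesprin gene of the nuclear envelope (chr10:5528326-5528999), with H3K27ac at 7.52 and 5.07 in Tcf4 cKO, ATAC at 8.02 and 7.55 there, and in WT a single ATAC peak of 5.32. At Rab3gap1, a gene of synaptic vesicle trafficking (chr1:127854630-127855622), H3K27ac was 6.9 and 5.62 and ATAC 7.14 and 7.2 in Tcf4 cKO, with no peak of either kind in WT. The member near Gm23972 (chr13:39631531-39632247) had H3K27ac at 7.57 and 4.11 in Tcf4 cKO, and ATAC at 5.83 and 7.74 in WT and 11.81 and 11.68 in Tcf4 cKO (log2 change 0.89 ± 0.15, limma adjusted p = 0.00685). Tpt1-ps2 differed from these, with ATAC at 6.81 and 7.08 in WT and 7.81 and 6.93 in Tcf4 cKO, so that the genotypes overlapped. Apba2, a synaptic adaptor gene, completed the 5.

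H3K27ac peaks were also counted by accessibility call, with the limit that the rule kept WT H3K27ac low in every member and so favours a higher share in Tcf4 cKO. At the 94 that rose, H3K27ac peaks lay at 25.5% and 9.57% in WT and at 39.4% and 38.3% in Tcf4 cKO. At the 123 that fell the shares were 31.7% and 16.3% in WT and 9.76% and 6.5% in Tcf4 cKO, and at members tested but not called 31% and 15.2% in WT and 33.8% and 22.9% in Tcf4 cKO. The Tcf4 cKO libraries thus lay above both WT libraries at members that rose and below both at members that fell. H3K27ac in both Tcf4 cKO libraries was found at 25 of the 94 and 1 of the 123. H3K4me1 differed less, at 94.7% and 91.5% in Tcf4 cKO for members that rose, and 87% and 83.7% for those that fell.

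H3K4me1 was in neither Tcf4 cKO library at 215 members (3.77%), where 0.95% of all consensus regions had H3K4me1 in the WT pair alone, a pattern open by definition only to regions with H3K4me1 in WT. Their median width was 700 bp, and 31.6% of them had a difference of the authors' means under -1, against 7.09% of all members. H3K27me3 was present in the Tcf4 cKO pair alone at 55 members (0.965%), where 1.34% of all consensus and 0.78% of all distal regions had this pattern. Their medians of accessibility were 6.31 in WT and 6.28 in Tcf4 cKO, and for 43.6% of them the nearest promoter carried H3K27me3. The 5 strongest lay near Gm25374, Tnfrsf11a, the receptor gene of the osteoclast cytokine RANKL, Bmper, a gene of a BMP-binding protein, Acbd3 and Gm26791. At Gm26791 (chr14:118414101-118414781) ATAC rose as well, from 4.87 and 3.67 in WT to 7.86 and 7.55 in Tcf4 cKO (log2 change 0.93 ± 0.19, limma adjusted p = 0.0127), with H3K27me3 at 3.08 and 3.46 beside H3K27ac at 4.18 and 6.3.

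Tcf4 lay at a smaller share of members than of all consensus regions. A Tcf4 region was taken as reproducible where peaks of the 2 Flag libraries overlapped, and such regions covered at least 30% of 880 members (15.4%, Wilson 95% interval 14.5 to 16.4), against 48.1% of acetylated, 36% of Polycomb-marked and 9.29% of unmarked distal regions, 23.3% of all distal regions and 36.3% of all consensus regions. There were 14087 such regions, built here from the peaks of each library and stricter than the study's own set of binding sites, so a member without reproducible Tcf4 may still hold a Tcf4 peak. The Flag libraries were of unequal size, with 28606 and 16834 peaks, and taken alone they covered 40.1% and 17.3% of members. Among members the share was 23.4% with a WT H3K27ac peak in 1 library and 9.06% with none. The strongest Tcf4 signal lay near Fam13c (chr10:70379907-70380749), with Flag enrichments of 12.09 and 10.28, and next near Fam110b, with 12.55 and 6.6. In an intron annotated to Sgcd, the delta-sarcoglycan gene (chr11:47129938-47130988), Flag enrichment was 7.98 and 10.73, and ATAC was 9.55 and 10.53 in WT and 5.78 and 3.96 in Tcf4 cKO (log2 change -0.99 ± 0.2, limma adjusted p = 0.0101). Near Pnlip, with Flag at 8.79 and 9.77, ATAC was 6.81 and 9.05 in WT and 6.3 and 8.5 in Tcf4 cKO, and the genotypes overlapped. Xrcc4, a DNA repair gene, was nearest to the last of the 5.

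The gap in accessibility between members with and without Tcf4 was narrower in Tcf4 cKO than in WT. The median log2 ATAC enrichment of the 814 tested members with Tcf4 was 3.01 and 3.09 in WT and 2.88 and 2.91 in Tcf4 cKO. For the 4364 without Tcf4 it was 2.8 and 2.91 in WT and 2.87 and 2.87 in Tcf4 cKO. The gap between them was thus 0.21 and 0.19 log2 units in WT and 0.01 and 0.03 in Tcf4 cKO, a change of -0.175 in which the genotypes did not overlap. With 2 libraries a genotype the exact two-sided permutation test gave p = 0.33, the smallest it allows. This comparison was not planned. At acetylated regions the gap was 0.23 and 0.18 in WT and 0.14 and 0.18 in Tcf4 cKO, and at unmarked regions 0.2 and 0.13 against -0.03 and 0.03. The gap closed further at members than at acetylated regions, by -0.125 log2 units (exact permutation p = 0.33, the smallest possible), and between members and unmarked regions the libraries overlapped (exact permutation p = 0.67).

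**Figure D3:**
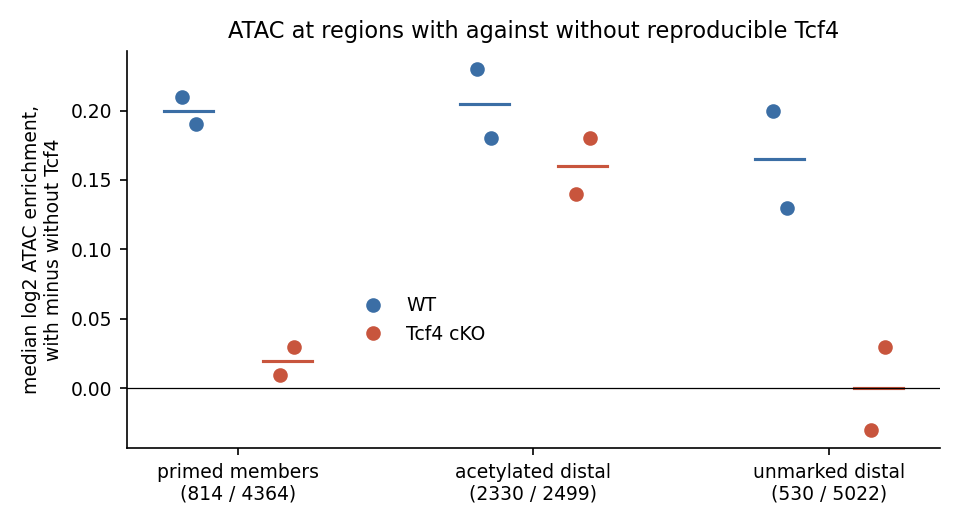
Median log2 ATAC enrichment of regions with minus regions without reproducible Tcf4 (y axis) in members, acetylated and unmarked distal regions (x axis, numbers with / without Tcf4). Each point is a library, WT in blue and Tcf4 cKO in red, and lines are means of 2. In members the gap was 0.21 and 0.19 in WT and 0.01 and 0.03 in Tcf4 cKO.

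Single calls followed the same division. Of the 814 members with Tcf4, 46 (5.65%, Wilson 95% interval 4.26 to 7.46) fell and 3 (0.369%, 0.125 to 1.08) rose. Of the 4364 without, 77 (1.76%, 1.41 to 2.2) fell and 91 (2.09%, 1.7 to 2.55) rose. Among members without any WT H3K27ac peak, 14 of 255 with Tcf4 fell and 0 rose, against 50 and 61 of 2535 without Tcf4. The count of 0 allows a share of up to 1.48% (Wilson). At acetylated regions the corresponding shares that fell were 1.8% with Tcf4 and 1.44% without. Unmarked regions divided as members did, with 3.58% fallen and 0.189% risen with Tcf4 against 1.87% and 2.87% without. By the authors' means, members with Tcf4 had a median of 6.75 in WT and 6.37 in Tcf4 cKO, and members without it 5.94 and 6.03, so those with Tcf4 stood higher in both genotypes. The part of the WT level in these calls was not tested.

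**Figure D4:**
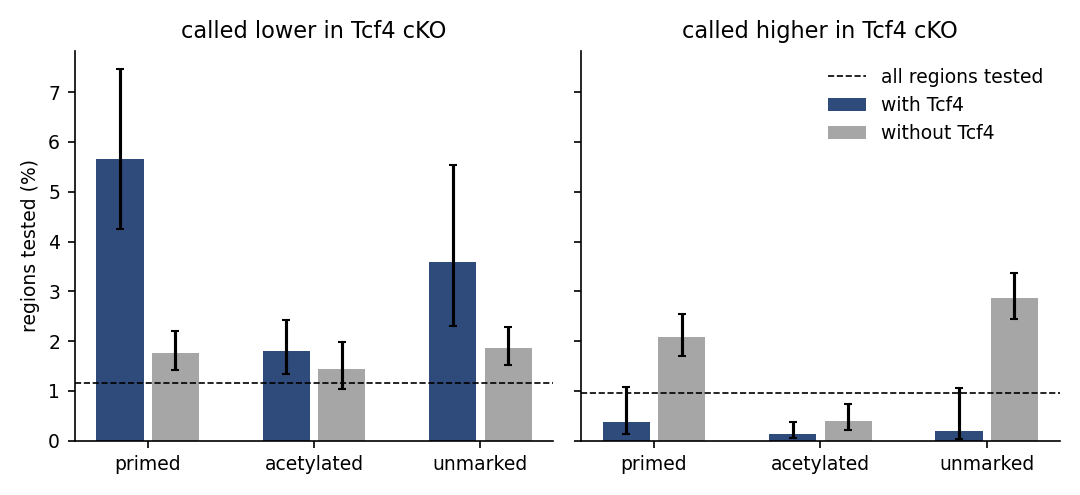
Percent of tested regions called lower (left) or higher (right) in Tcf4 cKO by limma (y axis), for primed, acetylated and unmarked distal regions (x axis), with Tcf4 in blue and without in grey. Error bars are Wilson 95% intervals over regions, and the dashed lines are the shares over all regions tested, 1.15% and 0.948%. Members with Tcf4 fell at 5.65% and rose at 0.369%.

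Sequence words around the member centres were counted next, within 75 bp of the centre on both strands. An E-box, CANNTG, was present in 60.1% of members, 58.5% of all distal regions and 49.2% of all consensus regions. Of its 10 kinds, CAGCTG was the most frequent, at 16.1% of members against 18% of acetylated and 13.4% of unmarked regions and 12.9% of all consensus regions. CACCTG was at 6.37% of members, 6.95% of all distal regions and 8.3% of all consensus regions. TTGGCA was present in 14.1% of members, 10.4% of acetylated, 12.3% of unmarked, 12.2% of all distal and 9.02% of all consensus regions. The Sox words ACAAAG or ACAATG were in 28%, the AP-1 word TGANTCA in 5.49%, the CTCF word CCANNAGGG in 4.09%, the homeodomain word TAATTA in 3.95% and the Ets word GGAAGT in 9.24%, each close to its share over all distal regions. The 10 kinds are counted again within CANNTG, and words can share letters where they meet, as an E-box and an NFI half-site can.

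CAGCTG was more frequent at members that fell, and TTGGCA at members that rose. CAGCTG lay at 41 of the 123 that fell (33.3%) and 18 of the 94 that rose (19.1%), against 14.9% of members tested and not called. TTGGCA lay at 8 that fell (6.5%) and 21 that rose (22.3%), against 13.9%. Of the other kinds of E-box, CAGATG was at 22.8% of those that fell and 8.51% of those that rose, and CACCTG at 8.94% and 4.26%. The Sox words were at 37.4% and 18.1%. The median log2 enrichment of members with CAGCTG, minus that of members without, was 0.03 and 0.02 in WT and -0.06 and -0.08 in Tcf4 cKO. For TTGGCA it was -0.01 and -0.03 in WT and 0.02 and 0.03 in Tcf4 cKO. Neither comparison had overlapping genotypes (exact permutation p = 0.33 for each of the 2, the smallest possible). For the CTCF word the genotypes overlapped, at 0.04 and 0.01 in WT and 0.06 and 0.0 in Tcf4 cKO. Like the gap by Tcf4, these comparisons were not planned.

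Tcf4 and CAGCTG together marked the members that fell most often. Of 213 tested members with both, 21 fell (9.86%) and 1 rose (0.469%), and the median difference of the authors' means over all 244 was -0.56. With Tcf4 alone 4.16% fell, with CAGCTG alone 3.41%, and with neither 1.51%. The matching share of members with TTGGCA and no Tcf4 was 0.337%, while 20 of 593 of these (3.37%) rose. Over all tested regions 1.15% fell and 0.948% rose. Other regions were not split by Tcf4 and CAGCTG, so whether this division is particular to members was not tested. The calls were lost when either WT library was left out. In the element near A630001G21Rik printed above, both words and Tcf4 occur together with the largest fall.

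Members near genes of known cell types were counted from lists that were chosen with earlier results of these data known. Near 22 oligodendrocyte lineage genes lay 6 members, of which 4 held Tcf4 and 3 had a difference of the authors' means under -1, and their median difference was -0.87. Near 22 astrocyte lineage genes lay 22 members at 15 genes, of which 3 held Tcf4. Of these, 7 had a difference over 1 and none under -1, and their median was 0.46. Over all members 6.58% were over 1 and 7.09% under -1, and over all consensus regions 2.87% and 4.18%. Acetylated regions had medians of the same signs, -0.24 for 13 near oligodendrocyte lineage genes and 0.23 for 9 near astrocyte lineage genes. The interneuron and ventral list had 8 members with a median of 0.02, the projection neuron list 5 with -0.02, the endothelial list 6 with -0.16 and the microglial list 2 with -0.41, beside -0.01 over all members and -0.0954 over all consensus regions. The median limma log2 change did not separate the lists in this way, at -0.01 for oligodendrocyte lineage, 0.16 for astrocyte lineage, -0.03 for interneuron, 0.23 for projection neuron, 0.26 for endothelial and -0.14 for microglial members. By limma 1 of 21 tested astrocyte lineage members rose and 1 fell, with 3 higher and 2 lower at an unadjusted p under 0.05, and 0 of 5 oligodendrocyte lineage members were called, with 0 at that unadjusted p. In the interneuron, projection neuron, microglial and endothelial lists limma called 0 of 7, 5, 2 and 6 members. At an unadjusted p under 0.05 there were 2 lower in the interneuron list, 1 higher in the projection neuron list, 0 in the microglial list and 2 higher in the endothelial list.

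**Figure D5:**
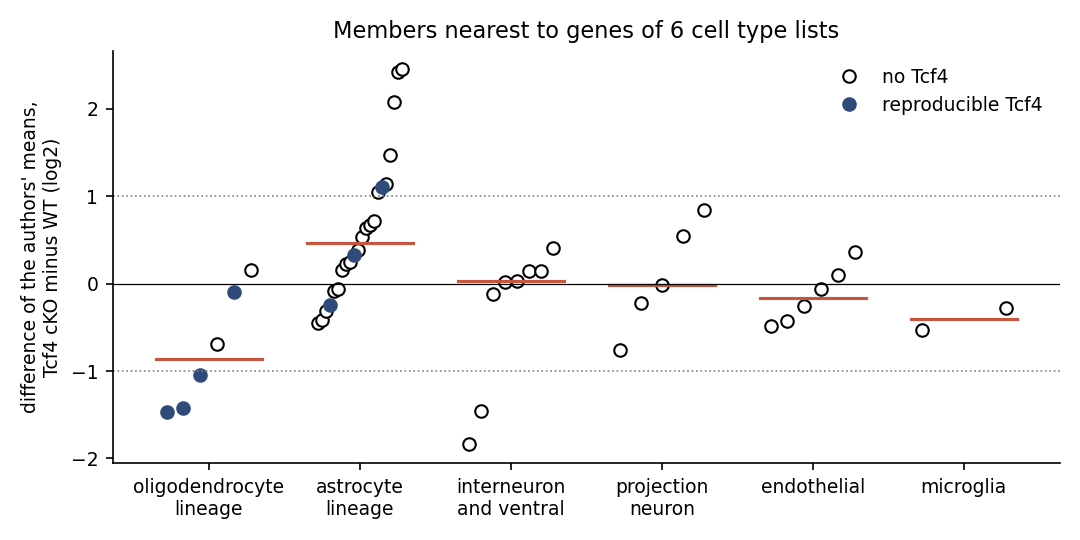
Difference of the authors' means on the log2 scale, Tcf4 cKO minus WT (y axis), of each member nearest to a gene of 6 cell type lists (x axis). Filled points hold reproducible Tcf4, red lines are medians, and dotted lines stand at 1 and -1. Oligodendrocyte lineage members had a median of -0.87 and astrocyte lineage members one of 0.46.

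Among the oligodendrocyte lineage, the intron of Enpp6, a choline phosphodiesterase of newly formed oligodendrocytes, held 2 members. At chr8:47005369-47006353 the authors' mean was 6.63 in WT and 5.21 in Tcf4 cKO, and ATAC enrichment was 7.39 and 8.47 in WT and 5.25 and 6.86 in Tcf4 cKO. At chr8:46988065-46989021 the mean was 7.2 and 6.16, while enrichment was 10.06 and 10.17 in WT and 9.77 and 9.2 in Tcf4 cKO. Upstream of Zfp488, a zinc finger regulator of oligodendrocyte differentiation (chr14:33996943-33998088), the mean was 7.41 in WT and 5.94 in Tcf4 cKO, and enrichment was 8.82 and 10.04 in WT and 6.62 and 7.6 in Tcf4 cKO. All 3 held Tcf4, and at all 3 the deposited enrichments of both WT libraries lay above those of both Tcf4 cKO libraries. They were named for a fall of the authors' mean, which comes from the same libraries, and this choice favours that order. After normalization the limma log2 changes were -0.31 ± 0.19 and 0.0 ± 0.13 for the Enpp6 members in that order and -0.32 ± 0.16 for Zfp488, and none was called (limma adjusted p from 0.397 to 0.997).

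In the astrocyte lineage, an intronic member of Slc4a4, the bicarbonate cotransporter of astrocytes (chr5:88945726-88946515), rose by limma. Its ATAC enrichment was 5.74 and 5.81 in WT and 10.17 and 9.68 in Tcf4 cKO (log2 change 0.87 ± 0.17, limma adjusted p = 0.0101). The second Slc4a4 member, also intronic, had a log2 change of -0.5 ± 0.18 that was not called. At Aldh1l1, a folate enzyme used as a pan-astrocyte marker, chr6:90541038-90542078 had a mean of 5.04 in WT and 7.46 in Tcf4 cKO, enrichments of 4.58 and 4.76 against 7.22 and 6.33, and H3K27ac at 3.45 and 3.04 in Tcf4 cKO alone (log2 change 0.62 ± 0.18, limma adjusted p = 0.0707). Upstream of Id2, an inhibitor of bHLH factors (chr12:25239781-25241062), the mean was 4.8 in WT and 7.25 in Tcf4 cKO, with ATAC at 5.45 in WT replicate 1 alone and at 7.91 and 9.2 in Tcf4 cKO. The other 2 Id2 members had differences of -0.42 and -0.09. Members near Fgfr3, Nfia, Mfge8 and Aqp4 had differences of the means of 1.47, 1.14, 1.1 and 1.05, with limma log2 changes of 0.46, 0.35, 0.11 and 0.3 that were not called. The Nfix member (chr8:84751642-84752626), in an intron of this nuclear factor I gene, went the other way, from 9.44 and 8.45 in WT to 4.52 and 4.27 in Tcf4 cKO (log2 change -0.93 ± 0.19, limma adjusted p = 0.0106). Its fall was smaller by the authors' mean, 6.78 in WT and 6.33 in Tcf4 cKO, a difference of -0.45. The paper describes the locus as more open after loss of Tcf4, and this member is a single region of it.

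The interneuron list held 2 members past -1. Near Sst, the somatostatin gene (chr16:23887885-23888408), the mean was 5.4 in WT and 3.56 in Tcf4 cKO, with ATAC at 6.15 and 7.04 in WT and at 4.23 in Tcf4 cKO replicate 2 alone, and H3K4me1 in WT only. Upstream of Npy, the neuropeptide Y gene (chr6:49778118-49778945), ATAC was 7.69 and 8.45 in WT and 4.69 and 5.34 in Tcf4 cKO (log2 change -0.6 ± 0.18, limma adjusted p = 0.0893). The other 2 Npy members had limma log2 changes of 0.26 and 0.12. Neither of the members past -1 held reproducible Tcf4. The endothelial gene Cldn5 had a member with H3K27ac in Tcf4 cKO alone, at 3.54 and 4.97, and with ATAC at 5.9 and 10.42 in WT and 8.0 and 8.05 in Tcf4 cKO, where the genotypes overlapped.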

How the data were processed

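The ATAC-seq and Cut&Tag libraries of sorted Nkx2.1-lineage cells were used, and the single-cell RNA libraries were not analysed here. Reads were aligned by the authors to mm10 with Bowtie2, and peaks were called on each library with MACS2. The deposited peak lists give for each peak a fold enrichment, a ratio over local background, with a p-value and a -log10 q. The authors' deposited consensus table gives, per genotype, a log2 of the mean read number after normalization, with an annotation in which promoters reach 1 kb from a start site. Its fold change, p-value and FDR columns, and the deposited footprint scores, hold the authors' own comparisons and were not used. No file gives reads per library, so the depth is unknown beyond peak numbers.

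From these files, each region took the strongest overlapping peak of each library (bedtools 2.31.1). Enrichments of ATAC peaks were log2 transformed, quantile normalized and tested with limma 3.58.1 (R 4.3.3, trended prior, Benjamini-Hochberg over 30379 regions). The procedure was tested on simulated data. For limma these had independent normal errors of shuffled size, so they cannot show how the real calls depend on single libraries. Single values were compared with exact permutation tests over libraries, and shares carry Wilson 95% intervals, which cover counting over regions only. Sequences were read from GRCm38 (RefSeq). Of the 32120 regions, 27824 had the symbol of a nearest gene in the table and 3911 took one from GENCODE M21. Every member was kept, and 5178 passed the requirement of a peak in every ATAC library.

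Members, lists and tests were chosen with earlier results of these data known. Named regions are the 6 largest falls and rises of the authors' mean, the 5 strongest gains of H3K27ac and H3K27me3, the 5 strongest WT H3K4me1 and Tcf4 signals, the 10 members with the smallest limma adjusted p, and the genes nearest to the most members. List genes were named for a member past 1 log2 unit, called by limma, or with H3K27ac or H3K27me3 in the Tcf4 cKO pair alone. Alternatives to the overlap, q-value, barring rule, promoter distance, window, normalization and libraries used are given in the closing section.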

Additional observations from a re-analysis of the deposited data

How the results depend on the processing

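The members and their changes depended on how marks were required and on the WT libraries. With peaks of -log10 q of at least 5, the rule found 1960 members, of which 56% stayed primed, 8.78% had H3K27ac in both Tcf4 cKO libraries, 16 had ATAC in Tcf4 cKO alone, 3.88% had a difference of the means over 1 and 18.3% held CAGCTG. With ATAC peaks so filtered, limma tested 4368 of the original members and called 14 lower and 5 higher. Barring a peak in either WT library left 2964 members, with 72.9% still primed, 6.71% with H3K27ac, 56 with ATAC in WT alone, 8.67% with Tcf4, 8.84% with a difference over 1 and 14.5% with CAGCTG. Centring the difference of the means gave 5.68% under -1 and 7.87% over 1, so that its balance turned. CAGCTG was at 28% in a window of 150 bp on each side. Deviations of same-numbered ATAC libraries had a correlation of -0.00578, so the numbers did not pair them, and a replicate block gave 225 lower and 191 higher. Median centring of the enrichments gave 162 higher. Both fits kept the 123 and 94 calls, a fit of all 5702 members with imputed values called 180 lower and 127 higher, 47 and 36 of them shared with those calls, and no called member changed sign in any of these fits.

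Leaving out 1 library in turn gave 4829 to 6408 members, 57.2% to 66.3% still primed, 8.22% to 31.8% with H3K27ac, 99 to 204 with ATAC in WT alone, 36 to 253 with ATAC in Tcf4 cKO alone, 11.3% to 40.1% with Tcf4, 6.48% to 7.27% under -1 and 7.01% to 7.74% over 1 for the means, and 14.8% to 15% with CAGCTG. The highest of these came without WT replicate 2 for ATAC in Tcf4 cKO alone and without Tcf4-tag replicate 2 for Tcf4. limma called 0 to 170 members lower and 0 to 90 higher, with 0 without either WT library, where the lone WT sample is assumed to vary like the others and all 14 named calls were lost. The change of the gap between members with and without Tcf4 ran from -0.187 to -0.164 without a library and was -0.179 with median centring. The gap itself and these 2 alternatives were chosen after seeing the data. The cause of these dependences was not tested. A peak covering 25% of a region, or leaving out regions within 3 kb of a start site, moved none of these counts by more than 1.5 times. No depth per library was available, so absent peaks cannot be told from weak ones.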
